A study of Mus musculus with 7 samples.

Results

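Nuclear pore complex and nuclear transport genes were examined in cultured mouse epicardial cells with and without lamin B1. The group comprised 44 genes chosen by known function, of 22738 gene rows: 26 nucleoporins, 3 regulators of the small GTPase Ran and 15 importins and exportins. By these names 43 were listed, and Ndc1 was found under its older symbol Tmem48. Of the 44, 42 had enough counts to be tested. Nup210 and Kpna2 did not pass the filter on low counts.

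Explants came from the ventricles of E12.5 mouse hearts, laid on gelatin for 48 hours. Once the hearts were taken off, the cells left behind grew on for 72 hours. Wild type explants gave 4 libraries and Lmnb1-/- explants 3, all on a mixed C57BL/6;129S4Sv/Jae;129S6/SvEvTac background, with no other treatment. The labels give the genotype alone, with no conditional allele or Cre driver. They number the replicates but do not tie them to embryos or litters, so the p-values measure only the spread between these libraries.

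The nuclear pore is a ringed channel through the nuclear envelope. An outer and an inner ring form its scaffold, membrane nucleoporins anchor it, nucleoporins rich in phenylalanine and glycine fill the channel, and a basket on the nuclear side lies next to the lamina. Cargo is carried through by importins and exportins, whose direction is set by Ran, loaded with GTP inside the nucleus and made to hydrolyse it outside. Importin alpha proteins bind the classical import signal of a cargo and link it to importin beta.

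Total counts ran from 1024898 in wild type replicate 2 to 3066936 in Lmnb1-/- replicate 1, and the 44 members together held 6167 to 25690 of them. Lmnb1 was almost absent where labelled so. In CPM, counts scaled to a common library total, its level was 204 ± 24.6 (SD, n = 4) in wild type and 1.49 ± 0.498 (SD, n = 3) in Lmnb1-/- libraries, a log2 fold change of -7.07 (SE 0.22). The adjusted p was 3.67e-10 in edgeR's quasi-likelihood test (Benjamini-Hochberg), used throughout. In that test the other lamins did not pass, Lmnb2 being at 0.24 (SE 0.20) with an adjusted p of 0.634 and Lmna at -0.03 (SE 0.11) with 0.935. Xist was at 258.8 and 241.8 CPM in wild type replicates 1 and 3 and at most 3.93 CPM elsewhere, so both female libraries were wild type. All 10 epicardial markers sought were above 1 CPM on average, whereas 4 of 7 endothelial markers and 5 of 8 cardiomyocyte markers were below it. Of smooth muscle and pericyte markers 1 of 10 was below it, and of leukocyte markers 0 of 7. The cardiomyocyte marker Tnnt2 averaged 119 CPM over all libraries, beside 61.4 CPM for the epicardial marker Wt1.

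One gene of the group rose past the threshold, and none fell. This was Kpna4, encoding importin alpha 3, which was 1.47-fold higher in Lmnb1-/- explants. Over all 10775 tested genes 0.362% passed upwards and 0.705% in either direction, 39 higher and 37 lower, or 47 higher and 26 lower when scaled by library totals alone. The carriers and Ran regulators held the largest upward values. Among 17 tested carriers and Ran regulators the median log2 fold change was 0.33 and 8 had an unadjusted p under 0.05, all of them higher. Among 25 tested nucleoporins the median was 0.11, in a range from -0.97 (Pom121) to 0.23, and 0 had an unadjusted p under 0.05. Over all tested genes 13.6% had an unadjusted p under 0.05, 6.20% upwards. The difference between nucleoporins and carriers was not tested.

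Of the 42 tested members 32 lay above 0, and the median change was 0.12 on the log2 scale, beside -0.02 over all tested genes, of which 47.6% lay above 0. CPM ranges of the 2 genotypes did not overlap in 5 members, all higher in Lmnb1-/- libraries: Kpna4, Kpna3, Tnpo1, Xpo1 and Ranbp2. These were 11.9% of the members. Over all tested genes ranges were apart in 13.3%, and in 6.36% with Lmnb1-/- libraries higher. The direction of the group's median was kept on leaving out any library, between 0.07 and 0.23. The median was 0.05 with a term for libraries of neighbouring numbers, beside -0.001 over all tested genes, and 26 of 42 members then lay above 0. Number group 1 held wild type replicate 1 and Lmnb1-/- replicate 1, and number group 2 wild type replicates 2 and 3. Number group 3 held wild type replicate 4 and Lmnb1-/- replicates 2 and 3. Genotype was thus uneven over these groups, and number group 2 held no Lmnb1-/- library.

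**Figure D1:**
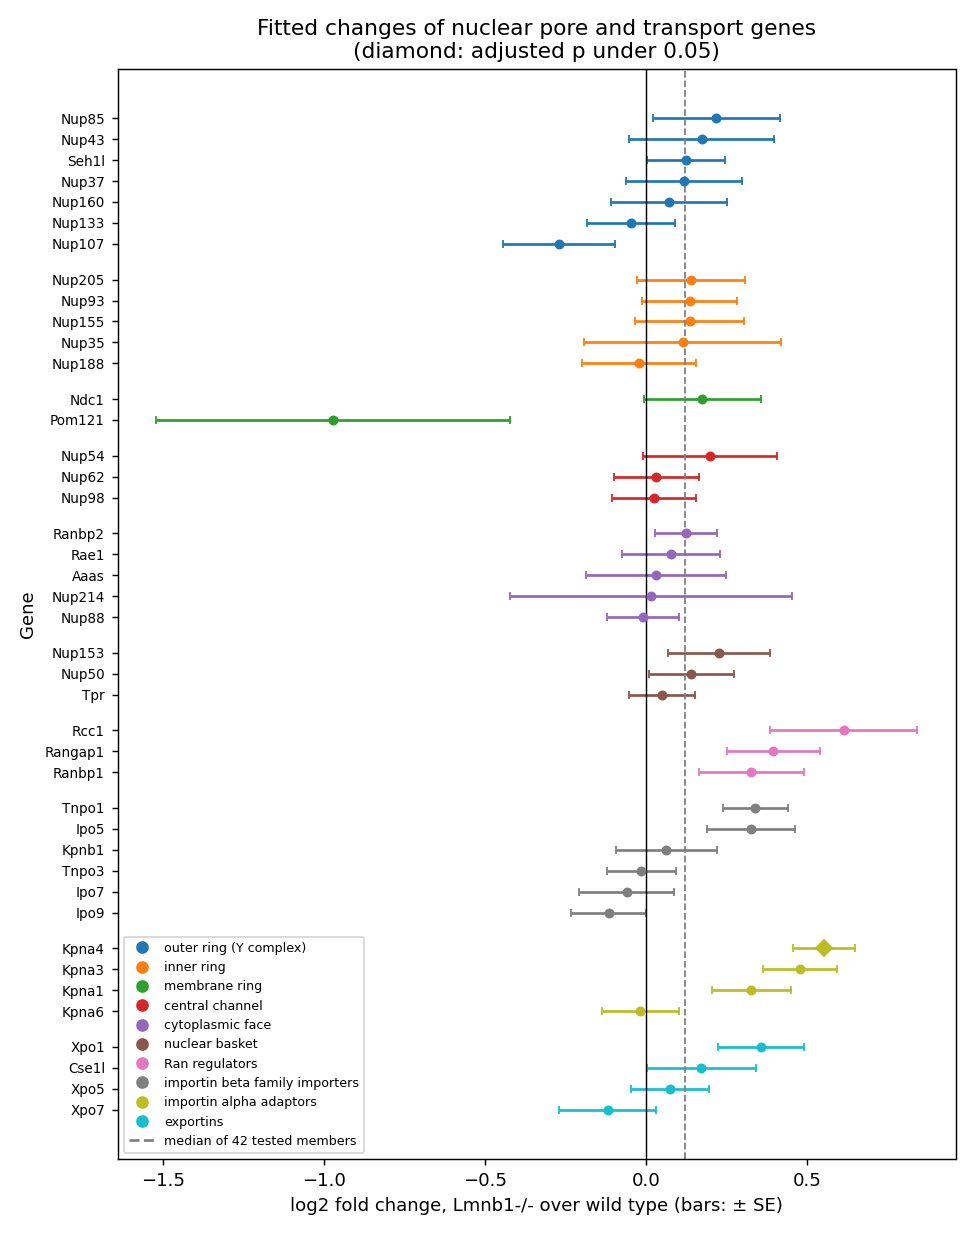
Log2 fold change (x axis, Lmnb1-/- over wild type, with its standard error) of each of 42 tested genes, coloured by role. Only Kpna4, at 0.55, is drawn as a diamond for an adjusted p under 0.05. The Ran regulators and 3 of 4 importin alphas lie to the right of the dashed median at 0.12.

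Importin alpha genes held the single change. Kpna4 was at 342, 337, 299 and 320 CPM in wild type replicates 1 to 4, and at 482, 453 and 492 CPM in Lmnb1-/- replicates 1 to 3. The lowest Lmnb1-/- library stood well above the highest wild type one. Its log2 fold change was 0.55 (SE 0.10, with adjusted p = 0.0272 in edgeR's quasi-likelihood test). The value stayed between 0.52 and 0.60 under all 18 alternatives. The call was lost on leaving out wild type replicate 3 or 4 (adjusted p = 0.0930 and 0.0658) or any of Lmnb1-/- replicates 1, 2 and 3 (0.133, 0.138 and 0.101). It was also lost with sex as a covariate (0.0868) but not within male libraries (0.0495).

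The sequence upstream of Kpna4 is shown because it is the gene that passed, and that of Xpo1, the exportin with the largest value, for comparison. Both are 250 bases ending at the start site, from RefSeq on GRCm38.p6, 5′ to 3′ on the gene's strand. For Kpna4 it is chr3:69127093-69127342 (minus strand) and for Xpo1 chr11:23255791-23256040 (plus strand). Capitals mark CCAAT boxes (CCAAT or its reverse complement ATTGG) and GC boxes (GGGCGG or CCGCCC).
Kpna4: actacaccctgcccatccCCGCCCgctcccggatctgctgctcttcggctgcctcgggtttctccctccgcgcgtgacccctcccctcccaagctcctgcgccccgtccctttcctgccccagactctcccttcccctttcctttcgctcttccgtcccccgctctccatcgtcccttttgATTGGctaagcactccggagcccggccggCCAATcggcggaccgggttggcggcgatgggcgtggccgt
Xpo1: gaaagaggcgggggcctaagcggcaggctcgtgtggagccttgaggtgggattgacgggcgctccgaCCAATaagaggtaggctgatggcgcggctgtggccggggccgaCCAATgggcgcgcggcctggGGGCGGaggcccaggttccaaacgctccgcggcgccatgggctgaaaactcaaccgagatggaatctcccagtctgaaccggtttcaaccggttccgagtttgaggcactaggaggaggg
Both windows held 2 CCAAT boxes and 1 GC box. Windows of Tnpo1 (at each listed start), Ranbp2 and Rcc1, also scanned, held 0 CCAAT boxes and from 0 to 4 GC boxes. The likeness of the pair shown thus depends on which gene was set beside Kpna4. Promoter entries matched 35 of the 44 members, and of these 42.9% held a CCAAT box and 68.6% a GC box on either strand. The shares were 37.0% and 62.2% among 7701 promoters of tested genes, and 34.5% and 32.9% among all 27025 promoters. Other motifs were scanned too, and each was also more frequent among members than among promoters of tested genes. The widest gaps were for the motif called CHR (9 members, 25.7% against 9.87%) and that of the factor NRF1 (4 members, 11.4% against 1.78%). None of these differences was tested. A match describes the letters only.

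Kpna3, encoding importin alpha 4 of the same subfamily as Kpna4, was at 144, 110, 112 and 127 CPM in wild type and at 173, 170 and 175 CPM in Lmnb1-/- libraries. The groups did not overlap and the Lmnb1-/- libraries lay within a few CPM of each other. Its log2 fold change was 0.48 (SE 0.12), which did not pass (adjusted p = 0.0807 in edgeR's quasi-likelihood test). It passed in DESeq2 (adjusted p = 0.0466), with no count filter (0.0411) and without wild type replicate 1 (0.0195). Under none of the other alternatives did Kpna3 pass. A term for libraries of neighbouring numbers lowered its log2 fold change to 0.36 (adjusted p = 0.206). With sex as a covariate the value was 0.53 (adjusted p = 0.144), and leaving out Lmnb1-/- replicate 2 gave 0.49 (adjusted p = 0.275). Kpna1, encoding importin alpha 5, was at 150, 117, 127 and 148 CPM against 183, 181 and 149 CPM. The ranges overlapped through wild type replicate 1, and the log2 fold change of 0.33 (SE 0.12) did not pass (adjusted p = 0.262). Kpna6, which belongs to the Kpna1 subfamily and encodes importin alpha 7, was at 155, 139, 126 and 118 CPM against 141, 133 and 124 CPM, wholly overlapping, with a log2 fold change of -0.02 (SE 0.12) and an adjusted p of 0.972.

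The make-up of the importin alpha counts followed from these values. Among the first-column counts of Kpna1, Kpna3, Kpna4 and Kpna6, Kpna4 made up 45.3 ± 1.97% in wild type (SD, n = 4) and 49.98 ± 2.10% in Lmnb1-/- libraries (SD, n = 3). Kpna6 made up 18.8 ± 1.48% and 13.9 ± 0.669%. Kpna2 is left out of these shares, since almost all its counts lay in the second column. With both columns added it averaged 202 CPM in wild type, beside 265 CPM for Kpna4 and 111 CPM for Kpna1. The shares are thus not those of all importin alpha genes. Longer transcripts give more counts, so they are shares of counts and not of molecules. They are given as a description with no test, since Kpna4 was singled out by its own change.

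**Figure D2:**
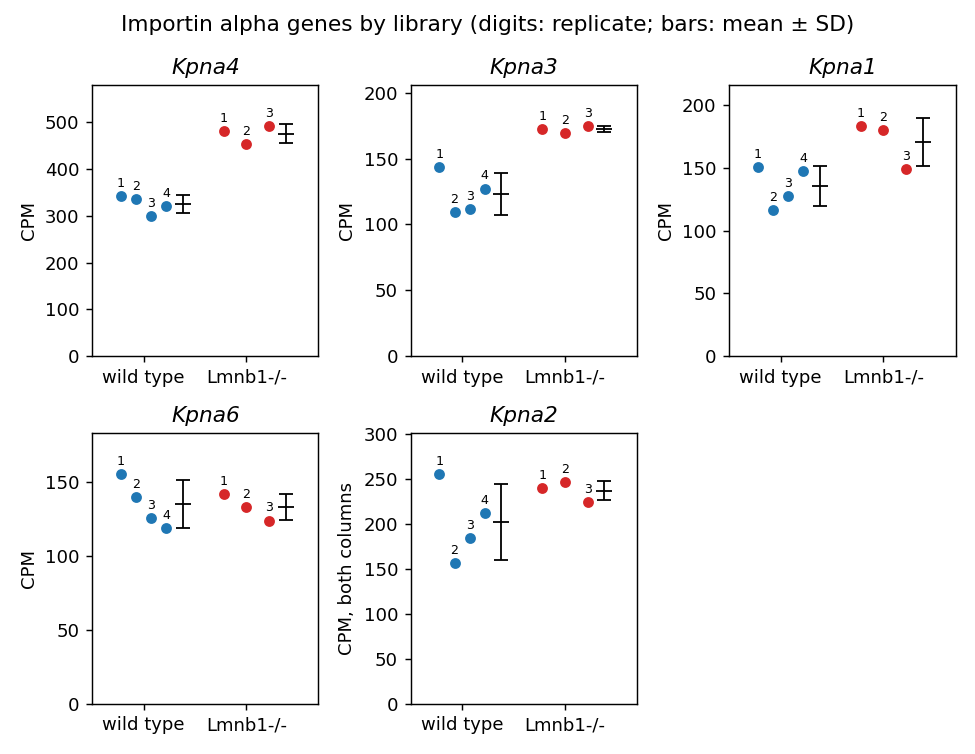
Level in CPM (y axis) of 5 importin alpha genes in each library, with the replicate number over each point and the mean ± SD beside it. Kpna4 in Lmnb1-/- libraries lies between 453 and 492 CPM, above all wild type libraries. Kpna2 is drawn from both count columns added.

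Kpna2, encoding importin alpha 1, the form abundant in dividing and pluripotent cells, could not be read from the first count column. It had 2, 0, 1 and 2 counts there in wild type and 4, 0 and 0 in Lmnb1-/- libraries. The second column held 718, 185, 599 and 614 counts in wild type and 907, 540 and 534 in Lmnb1-/- libraries, 99.8% of the total. The tables do not say what separates the 2 columns. Of the 50-base words of the longest Kpna2 coding transcript, 92.4% also occurred in transcripts of other genes, 11 of them annotated pseudogenes. Its closest match was Gm10184, a gene with a single exon.

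A stretch of 60 coding bases shows how alike the pair is, and a second pair shows the same for Nup35, of whose counts 80.3% were in the second column. Capitals mark the base that differs. Sequences are GENCODE transcripts on GRCm38, 5′ to 3′. The Kpna2 stretch lies in exons 6 and 7 on the minus strand of chromosome 11 (106991274 to 106991413), and that of Gm10184 in its exon on the minus strand of chromosome 17 (89909592 to 89909651). The Nup35 stretch lies in exons 4 and 5 on the plus strand of chromosome 2 (80646429 to 80652878), and that of Gm4353 in exons 1 and 2 on the minus strand of chromosome 7 (116083926 to 116084199).
Kpna2: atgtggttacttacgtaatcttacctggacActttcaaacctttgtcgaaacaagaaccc
Gm10184: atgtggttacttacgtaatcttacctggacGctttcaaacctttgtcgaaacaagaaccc
Nup35: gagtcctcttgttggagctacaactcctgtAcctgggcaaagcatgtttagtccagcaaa
Gm4353: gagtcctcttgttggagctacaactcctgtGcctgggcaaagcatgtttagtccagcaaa
Over the whole coding sequence Kpna2 and Gm10184 differed at 2 of 1587 bases, and Nup35 and Gm4353 at 1 of 975. Reads of either gene of a pair cannot be told apart over nearly all of that length. With both columns added, Kpna2 was at 256, 156, 184 and 212 CPM in wild type and at 240, 247 and 225 CPM in Lmnb1-/- libraries. The highest of all 7 was wild type replicate 1, and the log2 fold change of 0.22 (SE 0.14) did not pass (adjusted p = 0.528 in edgeR's quasi-likelihood test).

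Only 4 of the 44 members had 10% or more of their counts in the second column. Besides Kpna2 and Nup35 these were Nup54, with 32.0% and 20.3% of words shared, and Tnpo1, with 26.7% and 14.1%. Ranbp1 shared 24.8% of its words yet had 4.83% of its counts there. Kpna4, Kpna3, Kpna1, Kpna6 and Xpo1 had 0 counts in that column.

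**Figure D3:**
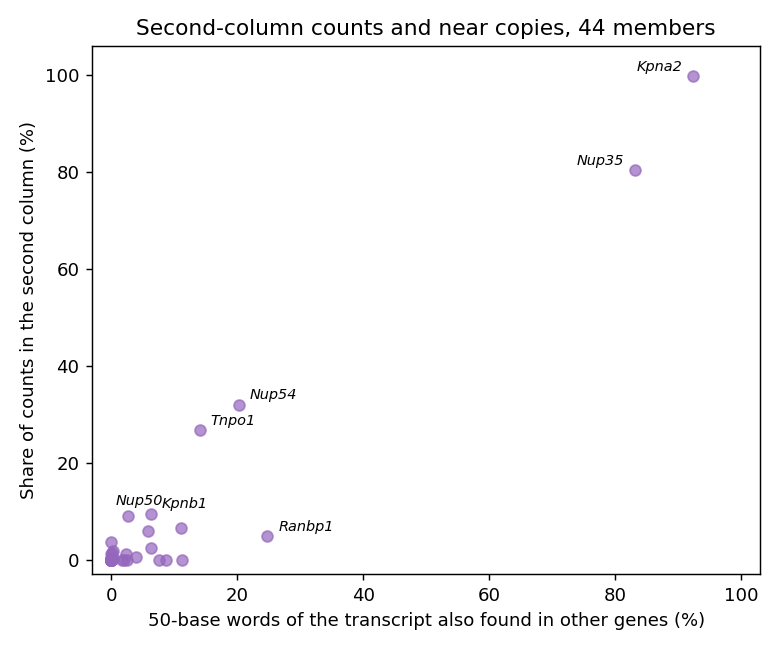
Share of a member's counts in the second column (y axis, percent) against the share of 50-base words of its transcript that occur in other genes (x axis, percent), 1 point per gene. Kpna2 and Nup35 stand at the upper right, with 99.8% and 80.3% of their counts in the second column.

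By median the Ran regulators came next after importin alpha, at 0.40 on the log2 scale, and all 3 lay above 0, though none passed. Rcc1, the chromatin-bound exchange factor that loads Ran with GTP, was at 102, 51.7, 48.6 and 60.7 CPM in wild type and at 110, 101 and 94.0 CPM in Lmnb1-/- libraries. Wild type replicate 1 lay among the Lmnb1-/- libraries and the other wild type libraries far below them. The log2 fold change was 0.62 (SE 0.23, with adjusted p = 0.279 in edgeR's quasi-likelihood test). Without wild type replicate 1 it was 0.92 and passed (adjusted p = 0.00709), and it passed within male libraries at 0.84 (adjusted p = 0.0343). With a term for libraries of neighbouring numbers it was 0.41 (adjusted p = 0.289), and it was 0.48 without wild type replicate 3 (adjusted p = 0.458).

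Rangap1, which makes Ran hydrolyse its GTP at the cytoplasmic face of the pore, was at 240, 149, 172 and 200 CPM in wild type and at 256, 273 and 227 CPM in Lmnb1-/- libraries. Here too only wild type replicate 1 reached into the Lmnb1-/- range. The log2 fold change was 0.40 (adjusted p = 0.251, SE 0.14), and 0.52 without that library (adjusted p = 0.0440 in edgeR's quasi-likelihood test). With a term for libraries of neighbouring numbers it was 0.22 (adjusted p = 0.554). Ranbp1, a helper of Rangap1 that frees carriers of Ran, was at 138, 105, 86.2 and 88.1 CPM against 149, 125 and 118 CPM, with a log2 fold change of 0.33 (adjusted p = 0.404, SE 0.16).

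Among importers of the importin beta family, Tnpo1 and Ipo5 had the largest values and neither passed. Tnpo1, transportin 1, carries RNA-binding proteins with a proline-tyrosine signal. It was at 295, 255, 274 and 285 CPM in wild type and at 382, 343 and 330 CPM in Lmnb1-/- libraries, with no overlap. The log2 fold change was 0.34 (SE 0.10, with adjusted p = 0.149 in edgeR's quasi-likelihood test), and it was the same with both columns added (adjusted p = 0.165). Ipo5, which imports ribosomal proteins and histones, was at 495, 354, 379 and 330 CPM against 538, 495 and 433 CPM. Again 1 wild type library, replicate 1, lay within the other group. The log2 fold change of 0.33 (adjusted p = 0.318, SE 0.14) became 0.46 without that library, where it passed (adjusted p = 0.0445). With a term for libraries of neighbouring numbers it stayed at 0.33 and did not pass (adjusted p = 0.286).

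Kpnb1, importin beta 1, the partner of importin alpha, was at 967, 638, 674 and 689 CPM in wild type and at 912, 766 and 651 CPM in Lmnb1-/- libraries. Its highest and its lowest library were both wild type, and the log2 fold change was 0.06 (SE 0.16, with adjusted p = 0.891 in edgeR's quasi-likelihood test). The other importers, Tnpo3, Ipo7 and Ipo9, had log2 fold changes between -0.12 and -0.01.

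Xpo1, the exportin that carries proteins with a leucine-rich export signal, was at 428, 276, 311 and 377 CPM in wild type and at 445, 453 and 447 CPM in Lmnb1-/- libraries. The groups did not overlap, and the spread was far wider in wild type. Its log2 fold change was 0.36 (SE 0.13, with adjusted p = 0.261 in edgeR's quasi-likelihood test). It was 0.17 with a term for libraries of neighbouring numbers. Cse1l, which returns importin alpha to the cytoplasm, had a log2 fold change of 0.17 (adjusted p = 0.693, SE 0.17). Xpo5, which exports microRNA precursors, and Xpo7 had 0.07 and -0.12.

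**Figure D4:**
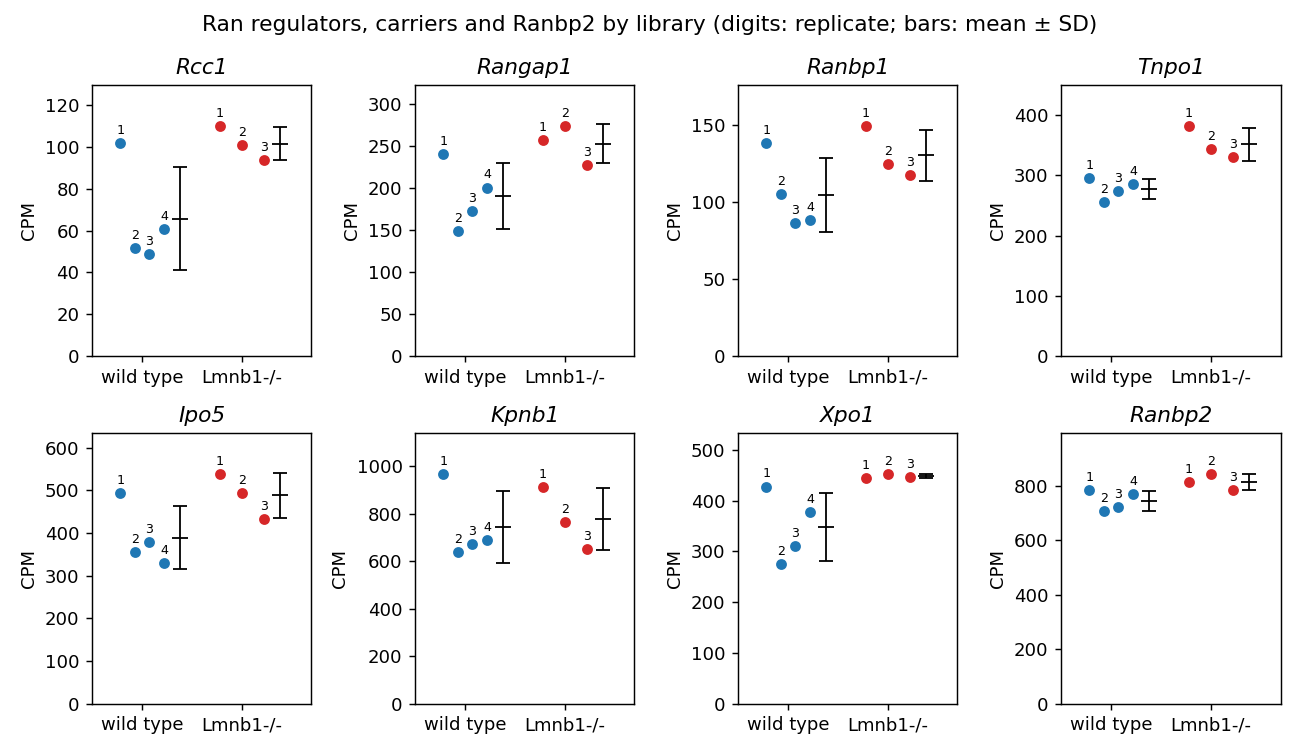
Level in CPM (y axis) of the Ran regulators, 4 carriers and Ranbp2 in each library, with the replicate number over each point and the mean ± SD beside it. Wild type replicate 1, at 102 CPM for Rcc1 and 967 CPM for Kpnb1, stands above the other wild type libraries in all 8 genes.

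Nucleoporins of the scaffold showed no change past the threshold. In the outer ring, whose Y-shaped complex builds the pore scaffold, 0 of 7 passed and 5 lay above 0. Nup107 was at 61.3, 46.5, 49.7 and 38.8 CPM in wild type and at 45.02, 40.9 and 36.0 CPM in Lmnb1-/- libraries, a log2 fold change of -0.27 (SE 0.17, with adjusted p = 0.526 in edgeR's quasi-likelihood test). Nup85 had 0.22 (SE 0.20) and Seh1l, also a subunit of an amino acid sensing complex, 0.12 (SE 0.12). The other outer ring genes lay between -0.05 and 0.17.

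In the inner ring, 0 of 5 passed and all log2 fold changes lay between -0.02 and 0.14. Nup205, a large scaffold subunit, was at 243, 141, 162 and 174 CPM against 223, 206 and 171 CPM, and Nup93, which holds the inner ring together, at 105.7, 78.5, 70.4 and 89.0 CPM against 84.6, 98.7 and 102 CPM. The highest library was wild type replicate 1 in both genes. Nup35 rested on 5 to 29 first-column counts per library, and its log2 fold change was 0.11 (SE 0.31) there and 0.15 (SE 0.15) with both columns added.

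Of the membrane nucleoporins, Ndc1, an anchor of the pore, had a log2 fold change of 0.18 (SE 0.18, with adjusted p = 0.712 in edgeR's quasi-likelihood test). Pom121 had the lowest value of the group, -0.97 (adjusted p = 0.474, SE 0.55). It was at 13.05, 33.1, 6.03 and 8.01 CPM in wild type and at 8.04, 6.73 and 5.14 CPM in Lmnb1-/- libraries. Wild type replicate 2, the shallowest library, gave 32 of its counts and stood far above all the others, and without it the log2 fold change was -0.40. Nup210, a glycoprotein of the pore membrane that is switched on in some differentiated tissues, had 2 to 7 counts per library and was not tested.

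Channel nucleoporins were close to 0. Nup62, which lines the channel, and Nup98, which also joins mRNA export, had log2 fold changes of 0.03 (SE 0.13) and 0.03 (SE 0.13), and both turned below 0 under some alternatives. Nup54, the partner of Nup62, had 0.20 (SE 0.21) in the first column and 0.02 (SE 0.20) with both columns added. None passed (adjusted p = 0.939, 0.955 and 0.716 in edgeR's quasi-likelihood test).

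At the cytoplasmic face, Ranbp2, a giant nucleoporin that holds Rangap1 at the pore, was at 784, 707, 724 and 770 CPM in wild type and at 813, 844 and 785 CPM in Lmnb1-/- libraries. The groups were apart by about 1 CPM, with wild type replicate 1 at 783.8 and Lmnb1-/- replicate 3 at 784.7 CPM. Its log2 fold change was 0.12 (SE 0.10, with adjusted p = 0.611 in edgeR's quasi-likelihood test), and the ranges overlapped under both alternative count filters. Rae1, an mRNA export factor, had 0.08 (SE 0.15), and Nup88, Nup214 and Aaas lay between -0.01 and 0.03. Nup214, which binds Nup88, was at 48.6 CPM in wild type replicate 2 and at 11.8 to 20.4 CPM in the other wild type libraries. Without that library its log2 fold change was 0.48 (SE 0.26) in place of 0.02 (SE 0.44), it ranged from -0.29 with sex as a covariate to 0.52 with a term for neighbouring numbers, and it passed in no setting. Aaas likewise went from 0.03 to 0.23 without wild type replicate 2.

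The nuclear basket is the part of the pore that lies nearest to the lamina, and Nup153 is known to bind lamins. Nup153 was at 224, 133, 159 and 152 CPM in wild type and at 218, 197 and 175 CPM in Lmnb1-/- libraries. Wild type replicate 1 was the highest library of all, and the log2 fold change was 0.23 (SE 0.16, with adjusted p = 0.563 in edgeR's quasi-likelihood test). Nup50, which helps to free cargo from importin alpha, had 0.14 (SE 0.13) and Tpr, the main strut of the basket, 0.05 (SE 0.10). An interval of about 2 standard errors around the Nup153 value spans both 0 and a rise as large as that of Kpna3.

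Beyond these 44 genes, 28 of 30 other nuclear pore and transport genes were tested, and 0 passed in edgeR's quasi-likelihood test, nor did any have an unadjusted p under 0.05. Their median log2 fold change was 0.02, with 15 of 28 above 0. The 4 with the smallest p were Nup58 (listed as Nupl1) at 0.24, Mcm3ap at -0.23, Senp2 at 0.28 and Nup210l at 0.45. Ran itself had 0.02 (SE 0.13), with 68.4% of its counts in the second column.

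Levels per transcript length differed widely within the group. In wild type Kpnb1 was highest, at 126 ± 25.7 CPM per kilobase (SD, n = 4), followed by Ipo7 at 109 ± 11.4, Ranbp1 at 96.3 ± 22.2, Ipo5 at 86.2 ± 16.1 and Ranbp2 at 77.7 ± 3.82 CPM per kilobase. Each of these neighbours differed by less than the spread of the libraries. Kpna4 ranked at 12, at 36.8 ± 2.19, the highest importin alpha in the first column, from which Kpna2 could not be read. The lowest tested members were Pom121 at 2.69 ± 2.22 and Nup214 at 3.63 ± 2.54, followed by Nup35, which the first column understates. Lengths are those of the longest coding transcript in GENCODE M21, which need not be the transcript made in these cells.

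Libraries of 1 genotype differed from each other across the whole group. Wild type replicate 1 was the highest wild type library in 37 of 42 tested members and the highest of all 7 libraries in 20. The median member, as log2 CPM less the mean of the gene, stood at 0.22 in wild type replicate 1 and at -0.18, -0.16 and -0.11 in wild type replicates 2 to 4. In Lmnb1-/- replicates 1 to 3 it stood at 0.21, 0.11 and -0.01. Without wild type replicate 1 the median log2 fold change was 0.23, 5 members passed in place of 1 (Kpna4, Kpna3, Rcc1, Rangap1 and Ipo5), and ranges were apart in 18, all higher. Over all genes tested without that library 2.63% passed in place of 0.705%, or 1.06% upwards, and ranges were apart in 24.8%, or 11.9% upwards. Leaving it out also left number group 1 with Lmnb1-/- replicate 1 alone, so genotype was then still more uneven over the number groups.

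Cell cycle genes were set beside these values. In a list of 24, 22 lay above 0, and the median change was 0.30 on the log2 scale. In edgeR's quasi-likelihood test 0 passed, and 9 had an unadjusted p under 0.05, all higher. These 9 were Pcna, Mcm2, Mcm3, Mcm4, Mcm5, Mcm7, Ccne1, Ccne2 and Rrm2. The 2 below 0 were Mki67 (-0.07) and Ccnb2 (-0.02). The median member of the 24 cell cycle genes stood at 0.34, -0.59, -0.36 and -0.16 in wild type replicates 1 to 4. It stood at 0.26, 0.21 and 0.15 in Lmnb1-/- replicates 1 to 3. The summed level of the cell cycle genes was 1536 to 2837 CPM in wild type and 2398 to 2668 CPM in Lmnb1-/- libraries. By the median member, wild type replicate 1 was the highest library in both lists. By summed level it was the highest for the cell cycle genes, but for the 44 members Lmnb1-/- replicate 1 was (8261 against 8082 CPM). Epicardial markers had a summed level of 1972 to 2714 CPM in wild type and 1553 to 1812 CPM in Lmnb1-/- libraries, with 9 of 10 below 0 and a median of -0.37 on the log2 scale, and 0 passed in edgeR's quasi-likelihood test, 4 having an unadjusted p under 0.05. All 8 tested smooth muscle and pericyte markers lay below 0 and had an unadjusted p under 0.05, and 5 passed in edgeR's quasi-likelihood test. Over all tested genes 0.343% passed downwards. The whole list of 10 had a summed level of 10856 to 12124 CPM in wild type and 8089 to 8836 CPM in Lmnb1-/- libraries. The summed leukocyte markers ran from 62.9 to 254.7 CPM in wild type and from 38.6 to 448.1 CPM in Lmnb1-/- libraries. Fewer cells of a type and less RNA per cell cannot be told apart in such samples, and the part of these lists in the values above was not tested.

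**Figure D5:**
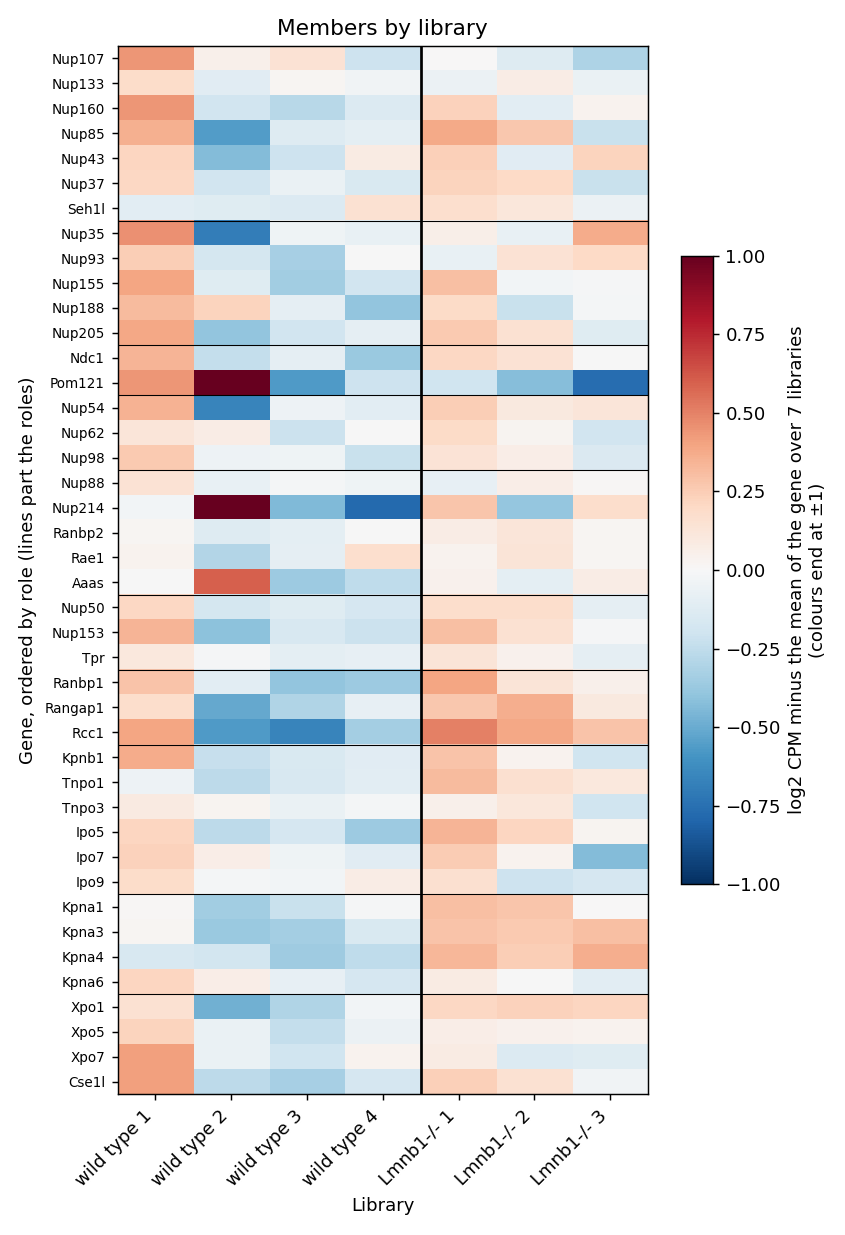
Log2 CPM of 42 tested members (rows, ordered by role) in each library (columns), less the mean of the gene over 7 libraries, with red above and blue below it. Kpna4 and Kpna3 are red in all 3 Lmnb1-/- columns. The wild type replicate 1 column is red in most rows, and wild type replicate 2 is dark red for Pom121 and Nup214.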

How the data were processed

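RNA was extracted with a PicoPure kit and libraries were made with the TruSeq RNA v2 kit, per the labels' protocols; that kit does not mark strand. TopHat, edgeR and mm9 are named in the submitters' processing notes. The counting program and annotation are not given in the sources used here. The authors deposited 1 table per library with 2 unnamed columns of whole-number counts per gene, with no normalization recorded per the file headers. The first column was used, and the second held 16.6 to 19.6% of all counts. Reading it as reads that match several places is an inference from the values. Rows repeating a gene name (649) were kept apart.

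Genes were filtered with filterByExpr, scaled by TMM and tested with edgeR 4.0.16 (limma 3.58.1, R 4.3.3), using the robust quasi-likelihood test with no covariate over all 7 libraries. Benjamini-Hochberg adjustment ran over all 10775 tested genes, with a threshold of 0.05. Each standard error is the absolute log2 change over the root of F. CPM use TMM-adjusted totals, and 3 counts made 0.965 to 3.10 CPM. Centred log2 CPM used a prior count of 2. Intervals between libraries rest on 4 and 3 values. Replicates of a group differed by more than counting noise (chi-square per degree of freedom 2.22 to 7.71). The procedure was tested on simulated data.

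The members and lists were chosen with earlier results of these data known. Named genes are the lamins, members past the threshold or with ranges apart, the 2 of smallest p and the 1 of highest CPM in each role, and 4 other transport genes of smallest p. Aaas, Ran, Kpna1, Kpna2, Kpna6, Ranbp1, Nup35, Nup210, Nup214, Nup88, Nup160, Xpo5, Xpo7, Tnpo3, Ipo7 and Ipo9 were named besides, after their values were seen, to complete their roles. The 18 alternatives were RLE factors, library totals, 2 count filters, DESeq2 1.42.0, limma voom, a replicate block, both columns added, sex (Xist above 10 CPM) as a covariate, male libraries only, a block for libraries whose numbers in the table names are neighbours (a gap over 2 starts a new group), and each library left out. Promoters came from RefSeq (GRCm38.p6) and transcripts from GENCODE M21 (GRCm38), not the mm9 build of the counts, and none of their coordinates was joined to the counts.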

Additional observations from a re-analysis of the deposited data

Results flagged for a closer look

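In 4 of 42 tested members 1 wild type library stood apart from the other 3 by a gap above Dixon's 95% critical value (0.829 of the whole range), where chance flags about 1 in 20 groups. Wild type replicate 1 was high for Nup160, at 85.7 CPM against 51.6 to 56.9 CPM, for Nup50, at 104.8 CPM against 80.6 to 83.6 CPM, and for Kpnb1, at 967 CPM against 638 to 689 CPM. Wild type replicate 4 was high for Seh1l, at 108.8 CPM against 89.2 to 90.9 CPM. Groups of 3 libraries were not examined this way.

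The second count column, used in no comparison of its own, held a signal for Tnpo1 that lay above all wild type libraries. Scaled to the second-column total, Tnpo1 was at 572 ± 47.2 CPM (SD, n = 3) in Lmnb1-/- libraries and at 459 ± 37.7 CPM (SD, n = 4) in wild type. Members with at least 100 such counts were Kpna2, Tnpo1, Kpnb1, Nup35, Ipo5, Nup54 and Nup50. Of these, Tnpo1 alone had second-column ranges that were apart and higher. The share of all genes with second-column ranges apart is not given here, so this is only a description. The longest Tnpo1 transcript shares words with a single other gene, the pseudogene Gm6493.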

How the results depend on the processing

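Depth was 1024898 to 3066936 counts, and members such as Pom121, Nup35 and Nup210 rest on 2 to 32 counts per library.

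The count of members past the threshold was 1. It was 2 with no count filter (Kpna3, Kpna4), with DESeq2 (the same genes) and within male libraries (Rcc1, Kpna4), and 0 with the replicate block and with sex as a covariate. Leaving out 1 library gave 0 to 5. Over all genes 76 passed, 180 with no count filter, 175 with DESeq2 and 95 within male libraries (0.895% of those tested). With both columns added 44 passed, with sex as a covariate 38, and on leaving out 1 library 3 to 279. Ranges were apart in 5 members, beside 13.3% of all tested genes. Within male libraries (2 against 3) they were apart in 18, beside 35.7% of all tested genes, 17.4% upwards. Under the other alternatives that change CPM they were apart in 4 to 18, beside 9.79% to 24.8% of all tested genes. The median stayed above 0 throughout (0.05 to 0.23). The cause of these shifts was not tested. Fewer libraries entered the male and left-out fits.

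Replicate numbers are shared by the groups, but deviations of same-numbered libraries correlated at 0.26, -0.16 and -0.09. They were not treated as pairs in the main test. Wild type replicate 1 and Lmnb1-/- replicate 1 also had neighbouring library numbers, and each correlated best with the other (0.26). Lmnb1-/- replicates 2 and 3 both correlated best with wild type replicate 4 (0.19 and 0.33), which was in their number group. Wild type replicate 4 and Lmnb1-/- replicate 1, of different number groups, correlated at -0.45. With the replicate block 77 genes passed, Kpna4 kept its log2 value of 0.55 but missed the threshold (adjusted p = 0.0503 in edgeR's quasi-likelihood test), and not every library correlated best with its own number.

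On the log2 scale some named genes near 0 changed sign, and none of these passed in any setting. With library totals Lmna had a log2 fold change of 0.0150. With the replicate block Nup98 had -0.0486. With sex as a covariate Lmna had 0.0462 and Nup62 -0.0033, and within male libraries 0.0446 and -0.0038. With neighbouring numbers Lmnb2 had -0.0130, Nup62 -0.0074, Rae1 -0.0514, Kpnb1 -0.0148 and Nup93 -0.0463. Leaving out 1 library moved Lmna between -0.0754 and 0.0487, Nup62 between -0.0716 and 0.134, Nup98 between -0.0386 and 0.130, Kpnb1 between -0.0693 and 0.218, and Tpr between -0.0039 and 0.115.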
